A study of Homo sapiens with 16 samples.

Results

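A673 cells of the clone Asp14 were compared after 96 h and after 18 h of doxycycline, 2 times at which the hairpin against EWS-FLI1 was already on. The comparison used 5 of the 16 arrays of the study, chosen by their titles, namely the 2 arrays taken 96 h and the 3 arrays taken 18 h after doxycycline was added. A673 is an established Ewing sarcoma cell line, and Asp14 is a single clone of it that carries a short hairpin RNA expression construct and a tet repressor construct, kept under zeocin and blasticidin. The RNA of all 5 arrays came from cells that had received doxycycline at 1 ug/ml, so the groups shared the clone, the constructs and the drug and differed in its duration. The 12 arrays after doxycycline, with those of 36 h (n = 3), 53 h (n = 2) and 72 h (n = 2), gave the spread for the tests, and the arrays of 0 h (n = 4) did not enter them. Time in culture, time on doxycycline and time without the fusion protein cannot be told apart in this design.

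EWS-FLI1 joins the amino-terminal part of the RNA-binding protein EWSR1 to the DNA-binding ETS domain of FLI1. The fusion protein turns some genes on, among them at GGAA repeats, and keeps others off, and it holds Ewing sarcoma cells in a dividing, poorly differentiated state. Released from it, the cells are known to take on features of mesenchymal cells, such as matrix production and actin stress fibres. E2F factors drive the genes of DNA replication and are held back by the RB proteins, while the genes of mitosis are switched on later in the cycle through NF-Y sites (CCAAT) and the cell cycle genes homology region (TTTGAA).

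Levels are log2 values per probe set, made by the authors with GCRMA, and a difference is the 96 h mean minus the 18 h mean on this scale. A gene was called where its adjusted p (limma, Benjamini-Hochberg adjustment over all genes tested) was under 0.05. Values under log2 4 were taken as dim, and where no probe set of a gene reached this value on any array of the dimmer group, log2 4 stood in for that group and the fold is written as at least so much. Replicates 2 and 3 at 18 h were close to each other, with an SD of their difference over genes of 0.158. For replicate 1 with each of them it was 0.491 and 0.489, and for the 96 h pair 0.377. Replicates 2 and 3 at 36 h, which also entered the spread, were likewise close (0.179), as were those at 0 h (0.168). Whether replicates were grown as separate cultures is not in the labels. The p-values cover the spread between arrays only, which may be technical. Replicates 2 and 3 at 18 h may be 1 RNA measured on 2 arrays, and so may those at 36 h, which would make the spread too small. None of the 11 blood cell markers on the array reached log2 4, nor did 11 of 12 epithelial and 7 of 9 endothelial markers. The exceptions were KRT18, a keratin, at 10.02 and 10.02 at 96 h against 7.72 to 8.16 at 18 h, KDR, a VEGF receptor, at 4.64 and 5.76 against 3.84 to 4.21, and EGFL7, a secreted factor, at 4.54 and 4.33 against 5.06 to 6.21. For ACTB the signal at the 3' end exceeded that at the 5' end, a gap that grows as RNA is degraded, by 1.83 and 1.56 log2 units at 96 h and by 1.96, 2.00 and 1.88 at 18 h.

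Most tested matrix, adhesion and contractile genes rose between 18 h and 96 h, while all tested genes of mitosis, most of the respiratory chain and most that EWS-FLI1 is known to turn on fell. In the limma fit adjusted over all genes, 28 of 35 matrix, 14 of 14 adhesion and 21 of 28 contractile genes were called higher, and 53 of 53 mitotic, 46 of 54 respiratory chain and 19 of 26 EWS-FLI1-activated genes lower. Some members were under log2 4 on every array of 1 group and passed the filter through the other group alone. Without them 20 of 27 matrix and 10 of 10 adhesion genes were higher and 15 of 22 EWS-FLI1-activated genes lower. The other 3 counts did not change. Of 7029 genes tested, 3436 (48.9%) were called, 1353 of them (19.2%) higher and 2083 (29.6%) lower at 96 h. The arrays of the groups did not overlap for 4731 genes (67.3%). Large changes ran mostly upwards, since 304 called genes were higher by at least 2 on the log2 scale and 70 lower by as much. By at least 5, 36 were higher and 1 lower. These counts use the deposited values, those under log2 4 included, so a rise from a dim 18 h group enters at its full size. How far dim values shape this skew was not tested. The median difference of all tested genes was -0.12. With replicates 2 and 3 at 18 h averaged into 1 sample, 1186 genes were called higher and 1754 lower. With those at 36 h averaged as well, the counts were 1130 and 1586. Without replicate 1 at 18 h they were 1394 and 2053. Centring each array on the median of all its probe sets gave 1062 genes higher and 2904 lower and moved the median difference to -0.28, while centring on the tested genes gave 1488 and 1843. Leaving out the 161 genes under log2 4 on every 18 h array and the 109 under it on every 96 h array, 17.7% of 6759 genes were called higher and 29.6% lower. Of 1682 other probe sets of called genes that reached the filter, 93.9% had the same sign.

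**Figure D1:**
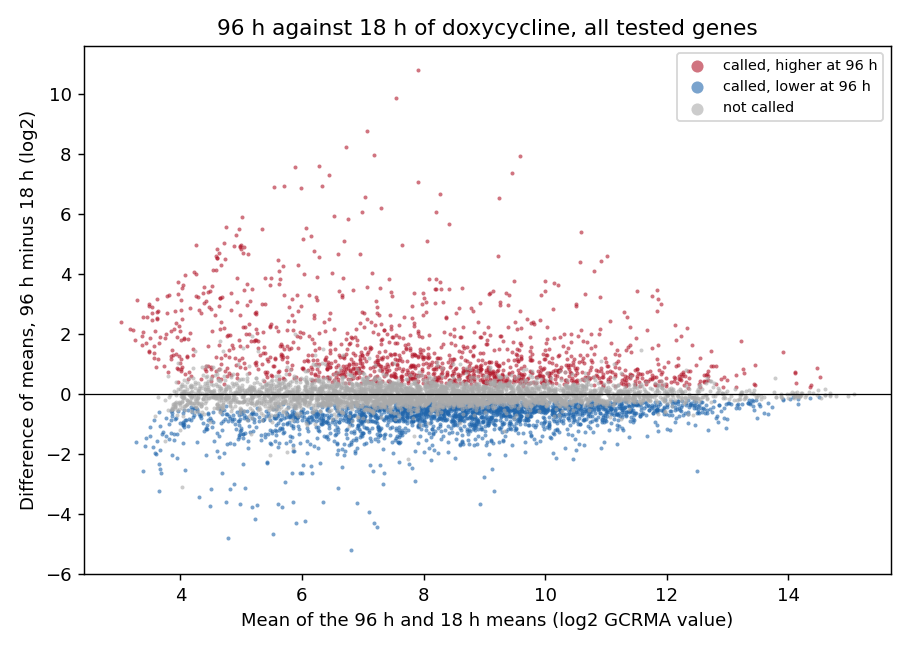
Difference of the means, 96 h minus 18 h (log2, vertical axis), against the mean of both groups' levels (log2 GCRMA value, horizontal axis) for 7029 genes, 1 point a gene. Red points are the 1353 genes called higher, blue points the 2083 called lower, and the red points reach farther from 0 than the blue ones.

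FLI1 itself did not pass the test between these times. Its brightest probe set, which reads transcripts of the fusion as well as of FLI1, stood at 6.92 and 6.52 at 96 h and at 6.52, 7.17 and 6.94 at 18 h, a difference of -0.15 ± 0.20 (SE) with an adjusted p of 0.549. The 18 h arrays lay on both sides of the 96 h arrays. All 12 arrays after doxycycline lay between 6.34 and 7.17 for this probe set, and the arrays of 0 h lay between 9.99 and 10.17. EWSR1, the other partner of the fusion, stood at 8.97 and 8.72 at 96 h and at 9.05, 9.21 and 9.16 at 18 h, with a difference of -0.30 and an adjusted p of 0.064.

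In the E2F and RB family, the factors that switch S phase genes on and the pocket proteins that restrain them, 1 of 10 tested members was called, against 48.9% of all genes. TFDP2, a DNA-binding partner of the E2F proteins, stood at 7.19 and 7.65 at 96 h against 8.38, 8.15 and 8.10 at 18 h and fell by 0.79 (SE 0.24, adjusted p = 0.0186). Without replicate 1 at 96 h its adjusted p was 0.151. E2F1, the activator that pushes cells into S phase, stood at 6.41 and 6.35 at 96 h and at 5.88, 6.24 and 6.50 at 18 h, so the groups overlapped (difference 0.17, SE 0.18, adjusted p = 0.446). E2F8, an atypical repressor of the family, had 6.67 and 5.66 at 96 h against 6.56, 7.43 and 6.85 at 18 h, with a difference of -0.78 and an adjusted p of 0.0521. RB1, the founding pocket protein, differed by -0.24 (adjusted p = 0.230), and E2F3, E2F5, E2F6, TFDP1, RBL1 and RBL2 lay between -0.39 and 0.31 with none called.

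All 53 tested genes of G2 and mitosis were called lower at 96 h, against 29.6% of all genes, with a median difference of -1.19 and a range of -2.43 to -0.34. No member had been left out by the filter. In these bulk cultures a lower share of cells in G2 or mitosis and less RNA per cell cannot be told apart. CCNB2, a mitotic cyclin, stood at 9.61 and 9.55 at 96 h, against 11.55, 11.36 and 11.40 at 18 h, and was 3.64-fold lower (SE 0.13 on the log2 scale, adjusted p = 2.1e-06). PTTG1, securin, which holds back the separation of sister chromatids, stood at 10.18 and 10.16 against 11.83, 11.74 and 11.75 and was 3.03-fold lower. HMMR, a spindle protein and hyaluronan receptor, was 3.49-fold lower and DLGAP5, a spindle assembly factor, 3.19-fold lower. For each of these 4 genes the arrays of the groups lay more than 1 log2 unit apart. The deepest fall was that of PLK1, the kinase that directs mitotic entry and exit, at 6.00 and 4.90 at 96 h against 7.89, 7.93 and 7.81 at 18 h, a difference of -2.43. The smallest was that of BUB3, a spindle checkpoint protein, which fell by 0.34 and was no longer called under 9 of 20 alternatives, and CDK1, the mitotic kinase (difference -0.69), was not called once replicate 2 at 96 h was left out (adjusted p = 0.132).

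Genes of G1/S and replication that E2F activates moved less and not all one way. Of 59 tested members 24 were called lower (40.7%, against 29.6% of all genes) and 2 higher (3.39%, against 19.2%), with a median difference of -0.43. Without replicate 2 at 96 h, 12 members were called lower. PRIM1, the primase subunit that starts new DNA strands, stood at 8.66 and 8.59 at 96 h against 9.66, 10.24 and 10.23 at 18 h and fell by 1.42 (SE 0.19, adjusted p = 0.00018). RPA3, of the single-strand DNA binding complex, was at 9.49 and 9.70 against 10.94, 10.77 and 10.92, a difference of -1.28. CHEK1, the kinase of the replication checkpoint, fell by 0.92, and RFC5, of the loader that sets the sliding clamp on DNA, by 0.70. PCNA, the clamp itself, differed by -0.07 and was not called, and the helicase subunits MCM3, MCM4, MCM5 and MCM6 lay between -0.16 and 0.09, none called. Within the MCM2 to MCM7 helicase only MCM7 passed the test, at 9.76 and 9.66 at 96 h against 10.30, 10.72 and 10.79 at 18 h (difference -0.89, SE 0.16, adjusted p = 0.00103), and the differences between its members were not tested.

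Both members that rose encode E cyclins, which activate CDK2 at the entry into S phase. CCNE1 stood at 5.58 and 4.20 at 96 h against 1.98, 3.19 and 3.25 at 18 h, at least 1.85-fold higher (adjusted p = 0.00321). It was under log2 4 on all 18 h arrays and passed the filter through the 96 h arrays alone. Of the other 58 tested members of the list, 1 was called higher (1.72%) and 24 lower (41.4%). CCNE2 stood at 7.54 and 6.55 against 5.24, 5.58 and 5.27, a difference of 1.68 (SE 0.39, adjusted p = 0.00512), and its adjusted p was 0.0605 without replicate 1 at 96 h. In neither gene did the groups overlap, as for 67.3% of all genes, and both were named after their values were seen. Among D-type cyclins, G1 kinases and their inhibitors, 1 of 6 tested genes was called higher and 2 lower (16.7% and 33.3%, near the 19.2% and 29.6% of all genes). CDKN3, a phosphatase of CDK1 and CDK2 that peaks in mitosis, was at 8.30 and 8.36 at 96 h against 10.17, 10.45 and 10.45 at 18 h and fell by 2.03. CDKN1B, the inhibitor p27, was at 10.07 and 10.66 against 11.28, 11.05 and 10.96 and fell by 0.73 (adjusted p = 0.0048). CCND3 rose by 0.79 (adjusted p = 0.0108), and missed the threshold when replicate 1 at 96 h was left out (adjusted p = 0.0699). CDK2 differed by 0.29 and CDK4 by 0.05, neither called.

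Promoters are shown for the members of the cell cycle lists with the smallest adjusted p whose promoter held the motif of the list. The sequences are from RefSeq (GRCh38.p14), 250 bases before to 50 after the annotated start of transcription, written 5' to 3' on the strand of the gene, with matches to the motif of the list (E2F, or the homology region) in capitals and CCAAT left in lower case. For E2F the motifs were TTTGGCGC, TTTCCCGC, TTTGCCGC and TTTCGCGC, for the homology region TTTGAA and for NF-Y CCAAT, each on both strands.
MCM7 promoter, GRCh38.p14 chr7:100101348-100101647, minus strand: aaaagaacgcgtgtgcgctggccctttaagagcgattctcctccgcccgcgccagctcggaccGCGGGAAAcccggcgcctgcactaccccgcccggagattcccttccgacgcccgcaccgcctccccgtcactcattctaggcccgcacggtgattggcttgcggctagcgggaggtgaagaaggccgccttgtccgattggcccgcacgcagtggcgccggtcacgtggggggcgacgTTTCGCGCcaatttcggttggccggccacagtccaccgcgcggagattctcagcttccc
CCNB2 promoter, GRCh38.p14 chr15:59104896-59105195, plus strand: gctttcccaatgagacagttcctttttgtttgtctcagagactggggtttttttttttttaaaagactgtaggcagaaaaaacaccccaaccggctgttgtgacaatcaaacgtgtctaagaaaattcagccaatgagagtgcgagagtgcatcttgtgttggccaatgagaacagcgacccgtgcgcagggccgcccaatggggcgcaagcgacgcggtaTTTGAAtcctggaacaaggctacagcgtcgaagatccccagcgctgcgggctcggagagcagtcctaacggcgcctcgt
In MCM7 the capitals mark 2 matches to the E2F motifs, the second of which lies at bases -9 to -2 and overlaps a CCAAT, and 1 of the 3 promoters of this gene in the table held them. In CCNB2 they mark TTTGAA at bases -29 to -24.

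An E2F motif stood in 36.1% of the 72 promoters of the G1/S list, against 5.32% of the promoters of all tested genes and 3.31% of all 35116 promoters in the table. TTTGAA stood in 63.2% of the 57 promoters of the G2/M list, against 11.1% of those of tested genes and 15.2% of all. CCAAT stood in 73.7% of the G2/M promoters and 54.2% of the G1/S promoters, against 35.7% of those of tested genes. These shares describe lists that were put together as cell cycle genes and say nothing of binding. Over all genes called in this comparison, an E2F motif stood in 2.96% of promoters of the higher genes and 6.06% of the lower ones, and TTTGAA in 10.6% and 13.4%.

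The 96 h arrays were not the low point of the cell cycle genes. At 72 h all 53 genes of the G2/M list and 58 of the 59 G1/S genes had a mean below that of 96 h. The median over the G2/M list, relative to the 18 h mean, was -1.68, -1.34 and -1.22 on the 36 h arrays, -2.47 and -2.84 at 53 h, -3.33 and -3.48 at 72 h, and -1.07 and -1.38 at 96 h. For the G1/S list the medians were -1.90, -2.07 and -1.79 at 36 h, -2.31 and -2.47 at 72 h, and -0.25 and -0.55 at 96 h. The 96 h arrays thus lay nearer to 18 h than those of any time between for the G1/S list, and no test was run on this course. PRIM1 had 5.65 and 5.70 at 72 h and CCNB2 7.79 and 7.95, both below their levels at 96 h given above. The mean of FLI1 was 6.99 at 72 h and 6.72 at 96 h, and a link between its level and this course was not tested.

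**Figure D2:**
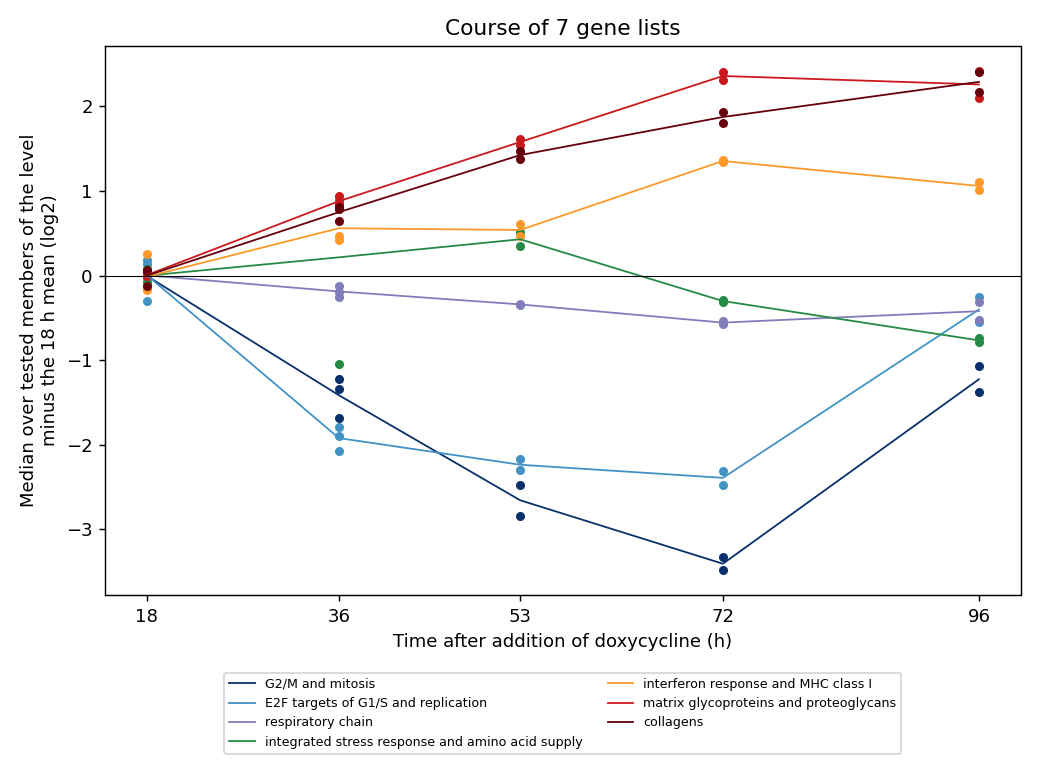
Median over the tested members of 7 gene lists of the level on each array minus the gene's 18 h mean (log2), against hours after doxycycline. Points are arrays and lines join the means of the arrays. The G2/M and G1/S lists are lowest at 72 h, the matrix and collagen lists are highest at 72 h and 96 h, and 1 array of 36 h stands apart for the stress response list.

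For most called genes the extreme mean came before 96 h. Of the 1353 genes called higher, 612 (45.2%) had their highest mean at 96 h, 580 (42.9%) at 72 h and 127 at 53 h. Of the 2083 called lower, 782 (37.5%) had their lowest mean at 96 h and 1128 (54.2%) at 72 h. The means of 36 h, 53 h and 72 h all lay between those of 18 h and 96 h for 356 of the higher genes (26.3%) and 299 of the lower ones (14.4%).

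Targets that EWS-FLI1 normally keeps on mostly fell between 18 h and 96 h. The list comes from knowledge of Ewing sarcoma cells, in which A673 has been much used, so its direction is no independent evidence. Of 26 tested members, 19 were called lower (73.1%, against 29.6% of all genes) and 4 higher, with a median difference of -1.32. Of the 26, 4 lay under log2 4 on both 96 h arrays and passed the filter through the 18 h arrays alone. Of the other 22 members 15 were called lower (68.2%) and 4 higher. PRKCB, the beta isoform of protein kinase C, stood at 4.94 and 5.10 at 96 h, against 9.99, 9.20 and 9.14 at 18 h, and was 21.5-fold lower (SE 0.25 on the log2 scale, adjusted p = 5e-07). PPP1R1A, an inhibitor of protein phosphatase 1, stood at 3.17 and 3.10 against 7.67, 6.94 and 7.36, at least 10-fold lower. HOOK1, which links cargo to microtubules, was at 5.30 and 4.96 against 9.35, 8.83 and 9.03, and GYG2, which primes glycogen chains, at 3.59 and 4.27 against 8.39, 8.23 and 7.93. For PRKCB, HOOK1 and GYG2 the arrays of the groups were more than 3 log2 units apart.

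UTS2, the precursor of the vasoactive peptide urotensin 2, showed the deepest fall of all called genes whose groups did not overlap, at 4.71 and 3.71 at 96 h against 10.53, 9.02 and 8.71 at 18 h. Its difference was -5.22 (SE 1.06, adjusted p = 0.0025). CALCB, which encodes a calcitonin gene-related peptide, stood at 2.38 and 2.37 against 7.38, 6.99 and 7.17 and was at least 9.06-fold lower. DKK2, a secreted modulator of Wnt signalling, was at 5.49 and 4.60 against 9.74, 9.20 and 9.09 (difference -4.30). NKX2-2, a homeodomain repressor that Ewing cells need, fell by 1.62 and CCND1, cyclin D1, by 0.56, the last no longer called under 10 of 20 alternatives. GLI1, an effector of Hedgehog signalling, was called lower near the floor, at 3.76 and 3.24 at 96 h against 4.86, 4.28 and 4.67 at 18 h. MYC differed by -0.02 and was not called. The 4 members that rose were KIT, a receptor tyrosine kinase, UPP1, uridine phosphorylase, TNC, the matrix protein tenascin C, and PLD2, phospholipase D2. KIT stood at 6.11 and 6.48 at 96 h against 3.13, 4.69 and 4.07 at 18 h and UPP1 at 8.65 and 8.71 against 5.22, 6.11 and 5.99. PLD2 rose by 0.58 and lost its call under 8 of 20 alternatives, and the call of TNC (difference 0.93) was lost when its probe sets were averaged (adjusted p = 0.323).

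The other genes among the 12 deepest falls came from several classes. TSPAN8, a tetraspanin of the cell surface, stood at 2.96 and 3.40 at 96 h against 9.96, 6.82 and 6.83 at 18 h, at least 14.6-fold lower. DLG2, a scaffold protein of synapses, was at 3.59 and 3.92 against 8.32, 7.96 and 7.87, at least 16.6-fold lower. SULT1E1, the oestrogen sulfotransferase, was at 2.72 and 2.50 against 7.25, 5.91 and 5.90, at least 5.11-fold lower. POU1F1, a transcription factor known from the pituitary, fell by 3.77. SLC15A2, a transporter of small peptides, fell by 3.76 on the probe set used, which was under log2 4 at 96 h (3.69 and 2.92). Its other probe set differed by -1.07. Replicate 1 was the highest 18 h array for all 12 genes with the deepest falls.

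**Figure D3:**
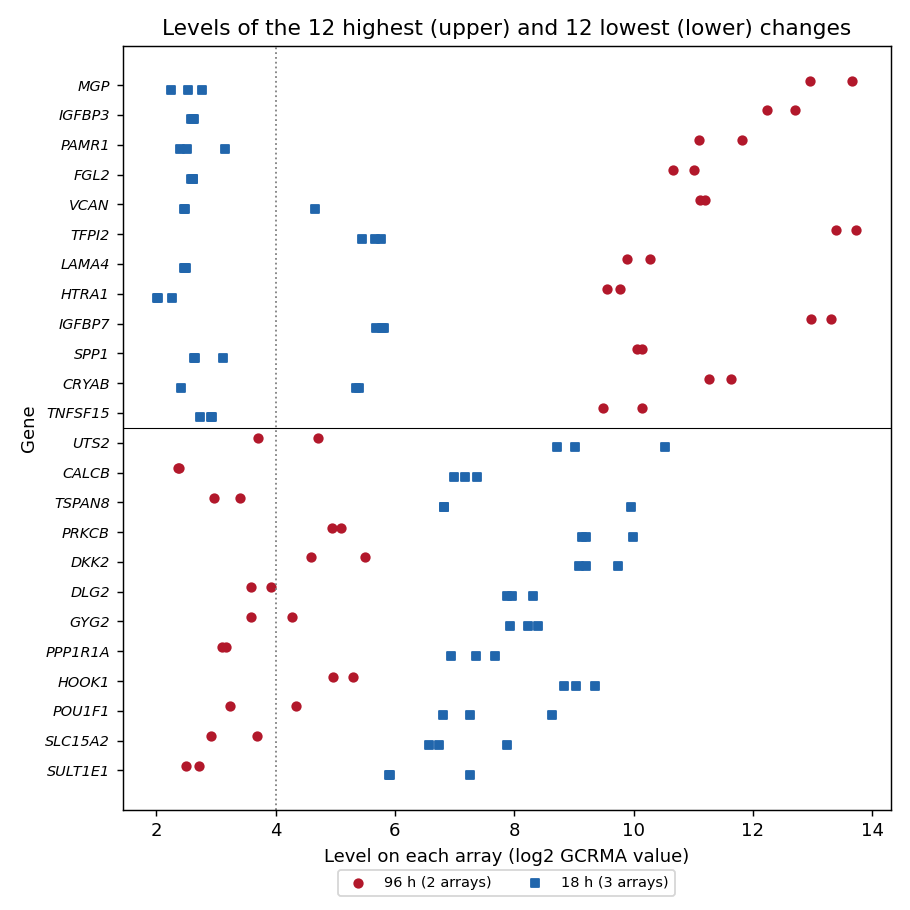
Level on each array (log2 GCRMA value) of the 12 genes with the highest and the 12 with the lowest difference among called genes whose groups did not overlap. Red circles are the 2 arrays of 96 h and blue squares the 3 arrays of 18 h, the dotted line is log2 4, and for 8 of the upper genes every 18 h array lies left of it.

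Genes that EWS-FLI1 is known to repress rose. Of 15 tested members, 14 were called higher (93.3%, against 19.2% of all genes) and 1 lower, with a median difference of 1.94. Of the 15, 2 were under log2 4 on all 18 h arrays, and of the other 13 members 12 were called higher and 1 lower. The same limit on independence holds for this list. IGFBP3, which binds insulin-like growth factors and keeps them from their receptor, stood at 12.24 and 12.70 at 96 h against 2.64, 2.59 and 2.61 at 18 h and was at least 355.0-fold higher (adjusted p = 1.3e-09). SPP1, osteopontin, stood at 10.06 and 10.14 against 3.11, 2.64 and 2.65, at least 68.6-fold higher. IGFBP3 was also dim at 36 h (2.87, 2.82 and 2.83) and rose through 53 h (5.27 and 5.39) and 72 h (10.20 and 10.92). SPRY1, a feedback inhibitor of receptor tyrosine kinase signalling, stood at 10.65 and 11.11 at 96 h against 7.64, 8.06 and 8.02 at 18 h and rose by 2.98. TGFBR2, the type II receptor of TGF-beta, was at 11.52 and 11.52 against 9.81, 9.47 and 9.46 and rose by 1.94 (SE 0.13, adjusted p = 2.1e-06). LOX, which cross-links collagen and elastin, rose by 4.58 and DKK1, a secreted Wnt inhibitor, by 6.18. TNFAIP6, a hyaluronan-binding protein, was the member called lower (difference -0.47, adjusted p = 0.0433), and the call was lost under 14 of 20 alternatives.

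Matrix glycoproteins and proteoglycans held the largest rise of the comparison, that of MGP. Of 49 members on the array 35 were tested, 28 of them called higher (80.0%, against 19.2% of all genes) and 0 lower, with a median difference of 2.25. Of the 35, 8 were under log2 4 on all 18 h arrays and so passed the filter through the 96 h arrays alone, and among the other 27 members 20 were called higher. With no filter the median over the list was 1.31. MGP, matrix Gla protein, an inhibitor of calcification, stood at 12.96 and 13.66 at 96 h against 2.25, 2.53 and 2.76 at 18 h and was at least 635.0-fold higher (adjusted p = 1.3e-08). It had 9.61, 8.11 and 8.65 at 36 h and 14.18 and 14.02 at 72 h, so most of its rise came before 96 h. PAMR1, a secreted protein with a peptidase domain, stood at 11.10 and 11.81 at 96 h against 2.39, 2.52 and 3.15 at 18 h, at least 175.0-fold higher, and FGL2, a secreted fibrinogen-like protein, at 10.66 and 11.02 against 2.62, 2.58 and 2.61, at least 114.0-fold higher.

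VCAN, the large proteoglycan versican, stood at 11.12 and 11.20 at 96 h against 4.66, 2.48 and 2.47 at 18 h, where replicate 1 alone was above log2 4. HTRA1, a secreted serine protease, was at 9.56 and 9.77 against 2.27, 2.02 and 2.03, at least 50.8-fold higher, and LTBP2, a latent TGF-beta binding protein of elastic fibres, was at 6.85 and 6.89 against 2.33 to 2.35, at least 7.33-fold higher. ELN, elastin, rose by 4.55, POSTN, periostin, by 3.44, TGFBI by 3.43 and FBN1, fibrillin 1, by 2.75. FN1, fibronectin, was among the brightest genes, at 14.84 and 14.76 at 96 h against 14.38, 14.10 and 14.24 at 18 h, and rose by 0.57 (adjusted p = 0.00016). Its other probe sets rose by 0.61, 0.62 and 0.66, and the less bright ones by 1.77 and 2.52. DCN, decorin, differed by 1.43 and FBLN1, fibulin 1, by -0.51, neither called.

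Most tested collagen genes rose. Of 20 tested members of 27 on the array, 18 were called higher (90%, against 19.2% of all genes) and 1 lower (5%, against 29.6%), with a median of 2.36. Of the 20, 4 were under log2 4 on all 18 h arrays and passed the filter through 96 h alone, and of the other 16 members 14 were called higher. COL6A3, a chain of the beaded filaments of type VI collagen, stood at 12.79 and 12.22 at 96 h against 6.75, 5.64 and 5.55 at 18 h and was 92.1-fold higher (SE 0.31 on the log2 scale, adjusted p = 1.6e-07). Its partner chains COL6A1 and COL6A2 were 4.52-fold and 9.75-fold higher, at 12.13 and 11.85 against 9.81, 9.87 and 9.77 for COL6A1. The fibrillar chains COL1A1, COL1A2 and COL3A1 rose by 3.01, 2.43 and 0.87, and the basement membrane chains COL4A1 and COL4A2 by 2.73 and 2.12. COL15A1, of the basement membrane zone, stood at 6.39 and 6.15 at 96 h against 2.27, 2.25 and 2.27 at 18 h and was at least 4.82-fold higher. It was still at 2.27 and 2.38 at 72 h, unlike the type VI chains. COL21A1, a collagen associated with fibrils, was the one that fell, at 11.81 and 11.50 against 12.40, 12.33 and 12.29 (difference -0.68).

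The enzymes that modify and cross-link collagen were all called higher, 12 of 12 tested members of 15 on the array (100%, against 19.2% of all genes), with a median of 1.68 and a range of 0.73 to 5.90. Of the 12, 1 (P3H2) was under log2 4 on all 18 h arrays. LOXL2, a lysyl oxidase, stood at 13.20 and 13.07 at 96 h against 8.07, 8.94 and 9.14 at 18 h and was 21.4-fold higher (adjusted p = 5.9e-07). PLOD3, a lysyl hydroxylase, was at 10.33 and 10.35 against 8.74, 8.50 and 8.61, and BMP1, the protease that trims procollagen, at 9.84 and 9.57 against 7.0, 6.51 and 6.51. P3H2, a prolyl 3-hydroxylase, was at least 15.6-fold higher, with 8.25 and 7.69 at 96 h and 1.94 to 2.22 at 18 h. The prolyl 4-hydroxylase subunits P4HA1, P4HA2 and P4HB rose by 1.08, 3.78 and 1.19.

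Integrin and laminin genes, the receptors of the matrix and the cross-shaped proteins of basement membranes, were also all called higher, 14 of 14 tested of 24 on the array (100%, against 19.2% of all genes). The median was 1.93. Of the 14, 4 passed the filter through the 96 h arrays alone, and the other 10 were called higher as well. LAMA4, the laminin alpha 4 chain, stood at 10.27 and 9.89 at 96 h against 2.49, 2.46 and 2.48 at 18 h, at least 67.6-fold higher (adjusted p = 8.2e-09). ITGAV, the alpha v subunit of receptors for vitronectin and latent TGF-beta, was at 12.79 and 12.44 against 10.14, 10.05 and 10.01 and was 5.85-fold higher. ITGA2, a subunit of a collagen receptor, stood at 5.61 and 4.76 at 96 h and at 2.64 and 2.62 at 72 h, and LAMB3, the laminin beta 3 chain, at 4.87 and 4.88 at 96 h and at 2.44 and 3.11 at 72 h. Both were at 2.02 to 2.20 at 18 h, so these genes crossed log2 4 only on the 96 h arrays. ITGB1, the common beta subunit, rose by 0.84.

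Of 21 tested proteases and inhibitors of the matrix, 15 were called higher (71.4%, against 19.2% of all genes) and 1 lower (4.76%, against 29.6%), with a median of 1.07. ADAM12 and MMP3 passed the filter through the 96 h arrays alone and ADAMTS1 through the 18 h arrays alone, and of the other 18 members 13 were called higher. MMP2, gelatinase A, stood at 10.80 and 11.15 at 96 h against 8.36, 8.17 and 8.08 at 18 h and was 6.84-fold higher (adjusted p = 6.3e-07). ADAM12 was at 6.81 and 6.94 against 2.28 to 2.29, at least 7.32-fold higher, and SERPINE2, an inhibitor of thrombin and plasminogen activators, at 14.67 and 14.56 against 13.04, 13.31 and 13.30. MMP3, stromelysin 1, stood at 4.86 and 5.41 at 96 h, against 2.37 to 2.46 on the arrays of 18 h to 72 h. PLAT, tissue plasminogen activator, rose by 6.06 and PLAUR, the urokinase receptor, by 3.01. ADAMTS1, a protease of versican and aggrecan, fell, at 3.93 and 3.24 against 5.12, 6.17 and 5.74, at least 3.20-fold lower. TFPI2, a Kunitz inhibitor of serine proteases that was not in the list, stood at 13.72 and 13.40 against 5.76, 5.67 and 5.44 and was 245.0-fold higher.

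IGFBP7, CRYAB and TNFSF15 completed the 12 highest. IGFBP7, a secreted relative of the IGF binding proteins, stood at 13.30 and 12.98 at 96 h against 5.69, 5.79 and 5.82 at 18 h. CRYAB, a small heat shock protein that steadies intermediate filaments, was at 11.27 and 11.63 against 2.41, 5.35 and 5.39. TNFSF15, a cytokine of the tumour necrosis factor family, was at 10.14 and 9.48 against 2.74 to 2.93, at least 56.0-fold higher. All of the 12 highest and 12 lowest genes were called under every alternative that tested them.

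**Figure D4:**
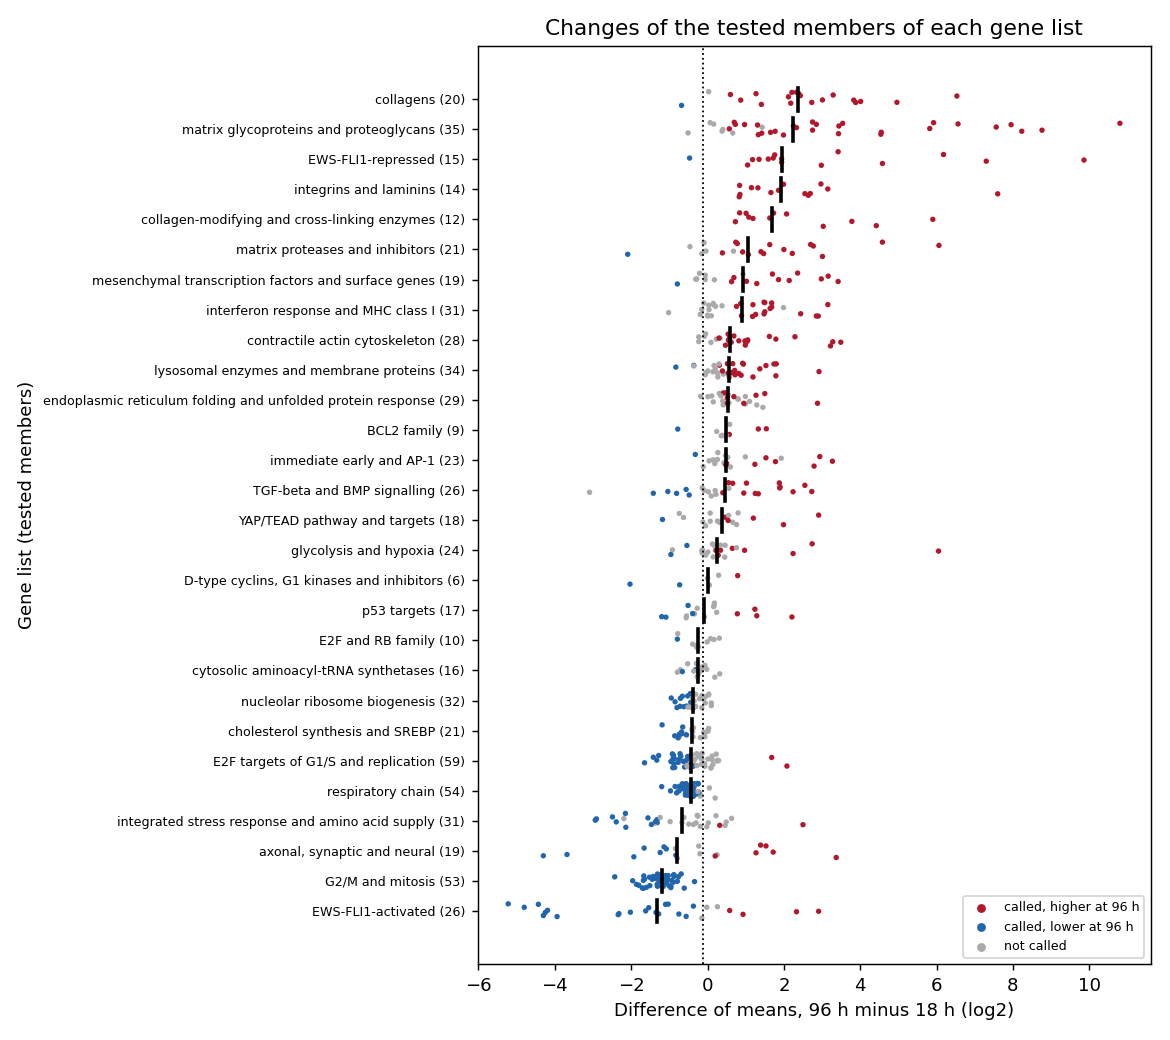
Difference of the means, 96 h minus 18 h (log2), of each tested member of 28 gene lists, with the number tested after the name. Red points are members called higher, blue points called lower and grey points not called, black bars are list medians and the dotted line is the median of all tested genes, -0.12. Lists of the matrix lie at the top and the G2/M and EWS-FLI1-activated lists at the bottom.

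Where limma called 0 tested members of a list in a direction, 0 also had an unadjusted p under 0.05 in that direction, except for 1 member each of 3 lists, FBLN1 (matrix, lower), IFI44L (interferon, lower) and HARS1 (tRNA synthetases, higher).

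Contractile and actin cytoskeleton genes, which build stress fibres and their anchors, were called higher in 21 of 28 tested members (75%, against 19.2%), with 0 lower and a median of 0.60. MYLK, the kinase that switches on non-muscle and smooth muscle myosin, stood at 10.24 and 9.65 at 96 h against 6.76, 6.22 and 6.39 at 18 h and was 11.2-fold higher (SE 0.33 on the log2 scale, adjusted p = 2.2e-05). ACTG2, smooth muscle gamma actin, stood at 8.13 and 7.39 against 4.75, 4.18 and 4.51, and was at 4.12 and 4.49 at 72 h. MYH9, a non-muscle myosin heavy chain, was at 9.54 and 9.12 against 7.56, 7.82 and 7.72, and PXN, paxillin of focal adhesions, rose by 0.82. TAGLN, transgelin, rose by 3.22 with an 18 h replicate 1 far under the others (7.47, against 10.23 and 10.17), and ACTA2, smooth muscle alpha actin, by 0.69. VIM, vimentin, rose by 0.30. SRF, the transcription factor of many of these genes, differed by -0.08 and was not called, while its cofactor MRTFA rose by 0.47.

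The promoter of MYLK is shown as that of the contractile gene with the smallest adjusted p that held an AP-1 motif (TGANTCA) or a TEAD motif (GGAATG), searched on both strands.
MYLK promoter, GRCh38.p14 chr3:123620499-123620798, minus strand: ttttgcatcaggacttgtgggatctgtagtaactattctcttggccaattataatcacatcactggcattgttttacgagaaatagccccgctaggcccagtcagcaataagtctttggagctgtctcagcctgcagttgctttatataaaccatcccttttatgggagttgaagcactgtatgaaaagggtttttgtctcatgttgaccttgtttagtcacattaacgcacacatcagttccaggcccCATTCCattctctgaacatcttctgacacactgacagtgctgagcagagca
The capitals mark GGAATG on the other strand, at bases -1 to 5 around the start. This was the only promoter listed for MYLK, and whether the transcript of the kinase starts there was not examined. GGAATG stood in 28.8% of the 52 promoters of the list, against 11.1% of those of tested genes and 14% of all, and TGANTCA in 11.5%, against 5.34% and 7.71%. Over all called genes TGANTCA stood in 8.65% of the promoters of the higher genes and 3.96% of those of the lower ones, and GGAATG in 11.6% and 11.5%.

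Of 18 tested genes of the YAP/TEAD pathway, 5 were called higher (27.8%, against 19.2% of all genes) and 1 lower. WWTR1, the coactivator TAZ, stood at 13.25 and 13.05 at 96 h against 12.08, 11.85 and 11.94 at 18 h and rose by 1.20, and YAP1 differed by 0.26 and was not called. AXL, a receptor tyrosine kinase, was at 9.37 and 9.15 against 5.18, 7.04 and 6.83 and rose by 2.91 (adjusted p = 0.00044). The often used target genes CCN1 and CCN2 differed by 0.31 and 0.76, with adjusted p of 0.510 and 0.194, and CCN2 overlapped between the groups (10.89 and 10.37 at 96 h, against 8.66, 10.53 and 10.42 at 18 h). The means of CCN1 and CCN2 had been higher between these times, at 13.56 and 13.22 at 53 h and 13.14 and 12.76 at 72 h. At 96 h they were 11.74 and 10.63, and no test was run on this course. AMOTL2, a binding partner of YAP1, was at 7.50 and 7.22 against 7.56, 9.01 and 9.06, and its call lower was lost under 8 of 20 alternatives.

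In TGF-beta and BMP signalling 13 of 26 tested members were called higher (50%, against 19.2% of all genes) and 5 lower (19.2%, against 29.6%). Of the 26, 1 was under log2 4 on all 18 h arrays and 1 on both 96 h arrays. Of the other 24 members 12 were called higher and 5 lower. Without replicate 2 at 96 h 7 were higher, and without replicate 1 at 96 h 2 were lower. Among the ligands TGFB1 rose by 2.24 and INHBA was higher as well, while BMP7 was at 7.20 and 7.28 at 96 h against 8.88, 8.60 and 8.50 at 18 h and fell by 1.42 (adjusted p = 1.4e-05). Among transducers SMAD3 was at 9.70 and 9.43 against 8.19, 7.39 and 7.44 and rose by 1.89, and SMAD2 and SMAD4 differed by -0.09 and 0.02, neither called. The inhibitors BAMBI, a decoy receptor, and SKIL, which represses SMAD targets, rose by 1.88 and 2.55, and SMAD6 fell by 1.04.

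Of 19 tested mesenchymal genes 11 were called higher (57.9%, against 19.2% of all genes) and 1 lower (5.26%, against 29.6%). PRRX1 and ZEB1 passed the filter through the 96 h arrays alone, and of the other 17 members 9 were higher. S100A4, a calcium-binding protein of motile cells, stood at 11.53 and 11.89 at 96 h against 8.47, 8.15 and 8.25 at 18 h and was 10.7-fold higher (adjusted p = 1.1e-06). NT5E, the surface enzyme CD73, was at 13.51 and 13.38 against 9.64, 10.54 and 10.65, and CD44, the hyaluronan receptor, at 12.19 and 11.80 against 8.45, 9.33 and 9.28. PRRX1, a homeobox factor of mesenchyme, was near the floor, at 4.00 and 4.59 against 2.15 to 2.16, and was not called with dim values set to log2 4 (adjusted p = 0.115). TWIST1 and SNAI2, factors of epithelial to mesenchymal transition, differed by -0.31 and -0.28 and were not called. ZEB1, under log2 4 on all 18 h arrays, was called higher, and ZEB2 fell by 0.79.

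Axonal and synaptic genes went both ways. Of 19 tested, 6 were called higher (31.6%, against 19.2% of all genes) and 8 lower (42.1%, against 29.6%), and 25 of the 44 on the array were too dim to test. Of the 19, 2 (DLG2 among them) were under log2 4 on both 96 h arrays and passed the filter through the 18 h arrays alone. Of the other 17 members 6 were called higher and 6 lower (35.3% each). Without replicate 1 at 96 h 3 were higher. GAP43, a protein of growing axon tips, stood at 11.14 and 10.95 at 96 h against 7.84, 7.76 and 7.42 at 18 h and rose by 3.37 (adjusted p = 4.1e-07), and DPYSL3, of the same process, rose by 1.72. STX1A, a syntaxin of synaptic vesicle fusion, was at 6.77 and 6.41 against 5.10, 5.08 and 5.01. CNTNAP2, of the axonal membrane, fell by 1.66 and ISL1, a homeodomain factor, by 1.24, and CDH8, a cadherin, was lower as well.

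A673 cells lack working p53, and of 17 tested genes known as p53 targets 4 were called higher and 4 lower (23.5% each), near the 19.2% and 29.6% of all genes, with a median of -0.08. TP53I3 stood at 6.68 and 6.47 at 96 h against 4.55, 4.25 and 4.28 at 18 h and rose by 2.21. CDKN1A, the kinase inhibitor p21, was at 8.34 and 8.65 against 8.15, 6.85 and 6.64, a difference of 1.29 (adjusted p = 0.0154) whose call was lost under 4 of 20 alternatives. CCNG1, cyclin G1, fell by 1.20 and FAS, a death receptor, by 1.09. Without replicate 2 at 96 h 2 members were called lower. In the BCL2 family PMAIP1, the BH3-only protein NOXA, stood at 11.08 and 11.21 against 9.51, 9.58 and 9.72 and rose by 1.54 (adjusted p = 1.1e-06). Of 9 tested members 3 were called higher (33.3%, against 19.2% of all genes) and 1 lower (11.1%, against 29.6%). BCL2, which guards against apoptosis, rose by 1.33 and BID, which promotes it, fell by 0.78, and neither was called without replicate 2 at 96 h (adjusted p = 0.108 for BCL2). Between 1 and 6 members were called higher over the alternatives.

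Interferon response and MHC class I genes were called higher in 17 of 31 tested members (54.8%, against 19.2% of all genes), with 0 lower (against 29.6%) and a median of 0.89. Of the 31, 4 were dim on all 18 h arrays, and among the other 27 members 13 were higher. HLA-E stood at 9.80 and 10.18 at 96 h against 8.84, 8.30 and 8.37 at 18 h, and HLA-B at 10.84 and 10.87 against 9.82, 8.77 and 8.95, rises of 1.48 and 1.68. HLA genes are near-identical in sequence, and probe sets may read several of them. B2M, the shared light chain, was at 13.84 and 13.68 against 13.95, 13.75 and 13.88 and was not called. The peptide transporter TAP1 rose by 0.87, and the immunoproteasome subunit PSMB8 was higher as well. OAS1, an antiviral enzyme, was at 5.11 and 6.05 against 2.99, 2.81 and 2.40, at least 2.99-fold higher, and IFITM3, which hinders virus entry, rose by 1.48. ISG15 and IFI44L, 2 widely used interferon markers, differed by -0.19 and -1.02 and were not called.

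In the integrated stress response ATF4 turns on amino acid supply when translation is slowed. Of 31 tested members 11 were called lower (35.5%, against 29.6% of all genes) and 2 higher, with a median of -0.67. Of the 31, 1 was under log2 4 on both 96 h arrays and passed the filter through the 18 h arrays alone. Of the other 30 members 10 were called lower (33.3%, near the 29.6% of all genes) and 2 higher. The spread of this list came largely from 36 h, where the median over the list relative to the 18 h mean was -1.05 on replicate 1 and 0.89 and 0.81 on replicates 2 and 3. With the spread taken from the 5 arrays compared alone, 18 members were lower and 4 higher, and without 1 array of the comparison in turn the count of lower members went down to 3 (without replicate 1 at 96 h). ATF3, a stress-induced transcription factor, stood at 5.90 and 6.79 at 96 h against 7.60, 7.76 and 7.63 at 18 h and fell by 1.32 (SE 0.23, adjusted p = 0.00114). It had been higher at 53 h, at 9.92 and 9.75. CTH, which makes cysteine, was at 8.50 and 8.17 against 9.71, 9.77 and 9.61 and fell by 1.36. GDF15, a stress cytokine, was at 3.83 and 4.68 against 7.79, 6.84 and 6.95, a call (adjusted p = 0.00655) that was lost on leaving out replicate 1 at 96 h (adjusted p = 0.0576).

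The enzymes of serine and asparagine synthesis PHGDH, PSAT1, PSPH and ASNS fell by 1.47, 2.49, 1.56 and 2.14. They belong to the stress response list, and the limits given above for its calls hold for them too. ATF4 itself was at 11.55 and 11.78 at 96 h against 12.42, 12.22 and 12.21 at 18 h and was not called (adjusted p = 0.136), although the arrays did not overlap. SLC38A2, an amino acid transporter, rose by 0.32, a call lost with arrays centred on the median of all probe sets (adjusted p = 0.106). NUPR1 rose by 2.50 and lost its call under 9 of 20 alternatives. The promoter of ATF3 is shown as that of the member with the smallest adjusted p that held a C/EBP-ATF response element, searched as TGATGNAAN on both strands.
ATF3 promoter, GRCh38.p14 chr1:212565157-212565456, plus strand: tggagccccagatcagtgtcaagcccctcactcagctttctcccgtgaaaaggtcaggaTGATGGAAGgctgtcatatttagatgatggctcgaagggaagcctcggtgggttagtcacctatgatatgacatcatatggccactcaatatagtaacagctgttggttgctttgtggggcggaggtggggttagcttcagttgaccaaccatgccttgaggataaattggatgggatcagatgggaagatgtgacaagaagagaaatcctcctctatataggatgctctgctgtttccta
The capitals mark the match, TGATGGAAG, at bases -191 to -183, in 1 of the 2 promoters of this gene. The element stood in 18.6% of the 43 promoters of the list, against 2.05% of those of tested genes and 3.61% of all promoters.

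Of 16 cytosolic aminoacyl-tRNA synthetases, many of them ATF4 targets, 2 were called lower (12.5%, under the 29.6% of all genes) and 0 higher, and 8 were lower with the spread of the 5 arrays alone. NARS1 stood at 11.16 and 10.72 at 96 h against 11.53, 11.67 and 11.62 at 18 h (adjusted p = 0.00879), and KARS1 fell by 0.31 (adjusted p = 0.0118). Neither was called without replicate 2 at 96 h. Of 29 tested genes of endoplasmic reticulum folding and export, 9 were called higher (31%, against 19.2%) and 0 lower, 5 of them without replicate 1 at 96 h and 22 with the spread of the 5 arrays alone. KDELR3, which returns chaperones to the reticulum, stood at 9.79 and 10.27 against 7.42, 7.19 and 6.84 and rose by 2.88, and the coat protein SEC31A rose by 0.69. HSPA5, the chaperone BiP, differed by 0.52 and was not called.

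Respiratory chain subunits were lower in 46 of 54 tested members (85.2%, against 29.6% of all genes), with 0 higher, by small amounts with a median of -0.44. All 54 on the array were tested. NDUFA7, of complex I, stood at 8.10 and 8.20 at 96 h against 9.44, 9.28 and 9.36 at 18 h and fell by 1.20 (SE 0.11, adjusted p = 1.5e-05). COX7C, of complex IV, was at 12.36 and 12.47 against 13.28, 13.17 and 13.20 and fell by 0.81, and COX5A fell by 0.48. UQCRC2, of complex III, was at 11.55 and 11.63 against 12.14, 12.11 and 12.06 and fell by 0.51. Of the ATP synthase ATP5MC1 fell by 0.97, and ATP5F1D differed by 0.20 and was not called.

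Glycolysis and hypoxia genes were called higher in 8 of 24 tested members (33.3%, against 19.2% of all genes) and lower in 2 (8.33%, against 29.6%), and with arrays centred on the median of all probe sets 4 were higher and 4 lower. EPAS1, the hypoxia-inducible factor 2 alpha, stood at 9.42 and 10.61 at 96 h against 2.96, 4.32 and 4.61 at 18 h and rose by 6.05 (SE 0.44, adjusted p = 3.2e-06). NDRG1 was at 6.45 and 6.76 against 4.82, 3.61 and 3.19, and the first glycolytic enzyme HK1 rose by 0.97 while PFKM, muscle phosphofructokinase, fell by 0.96. GAPDH, PGK1 and ENO1 differed by -0.14, -0.05 and 0.01 and were not called. Of 21 cholesterol and fatty acid synthesis genes 8 were called lower (38.1%, against 29.6%) and 0 higher, and 5 without replicate 2 at 96 h or without replicate 3 at 18 h. ELOVL6, a fatty acid elongase, was at 9.04 and 8.28 against 9.79, 9.94 and 9.82, FDPS, of isoprenoid synthesis, was at 10.76 and 10.75 against 11.44, 11.46 and 11.39, and SREBF1, the regulator of lipid genes, fell by 0.77. Of 32 nucleolar ribosome biogenesis factors 12 were lower (37.5%, against 29.6% of all genes) and 0 higher (against 19.2%), and 5 were lower without replicate 2 at 96 h, with falls of 0.85 for WDR12 and 0.36 for FBL, fibrillarin.

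Lysosomal genes were called higher in 20 of 34 tested members (58.8%, against 19.2% of all genes) and lower in 2 (5.88%, against 29.6%), with a median of 0.55. Of the 34, 2 (CTSO among them) passed the filter through the 96 h arrays alone, and of the other 32 members 18 were higher. LIPA, lysosomal acid lipase, stood at 11.49 and 11.54 at 96 h against 10.09, 9.97 and 9.89 at 18 h and was 2.89-fold higher (adjusted p = 5.6e-05). MANBA, beta-mannosidase, was at 7.21 and 7.45 against 5.77, 5.45 and 5.56, and NPC2, which carries cholesterol out of lysosomes, at 11.15 and 11.29 against 10.32, 9.87 and 9.90. CTSO, a cathepsin, was at least 4.26-fold higher, and CTSB and CTSL, counted among the proteases, rose by 1.47 and 1.07. PPT1 and CLN3, whose loss causes neuronal storage disease, fell by 0.36 and 0.83.

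Of 23 tested immediate early and AP-1 genes, 8 were called higher (34.8%, against 19.2% of all genes) and 1 lower (4.35%, against 29.6%). Of these 23, 2 (FOSL1 among them) passed the filter through the 96 h arrays alone, and of the other 21 members 6 were higher. FOSL1, an AP-1 subunit, stood at 5.94 and 5.45 at 96 h against 2.32, 3.65 and 2.75 at 18 h, at least 3.24-fold higher (adjusted p = 0.00047), and JUNB rose by 2.94. FOS and JUN differed by 1.93 and 0.27 and were not called, and JUND fell by 0.32. IER3, an early response gene of stress, was at 13.28 and 13.51 against 9.77, 10.32 and 10.29 and was 9.62-fold higher. SPRY2, a feedback inhibitor of receptor tyrosine kinases, was at 9.84 and 10.01 against 7.87, 8.40 and 8.17 and rose by 1.78. EGR1, another early gene of that pathway, differed by -0.11 and was not called.

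Single genes separated early from late risers among those higher at 96 h. MGP and COL6A3 had most of their rise by 53 h, whereas COL15A1, MMP3, ACTG2 and CCNE1 were near their 18 h levels at 72 h and above every earlier array at 96 h. The late risers were picked from the named genes after their course was seen, and no test was run on the course.

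**Figure D5:**
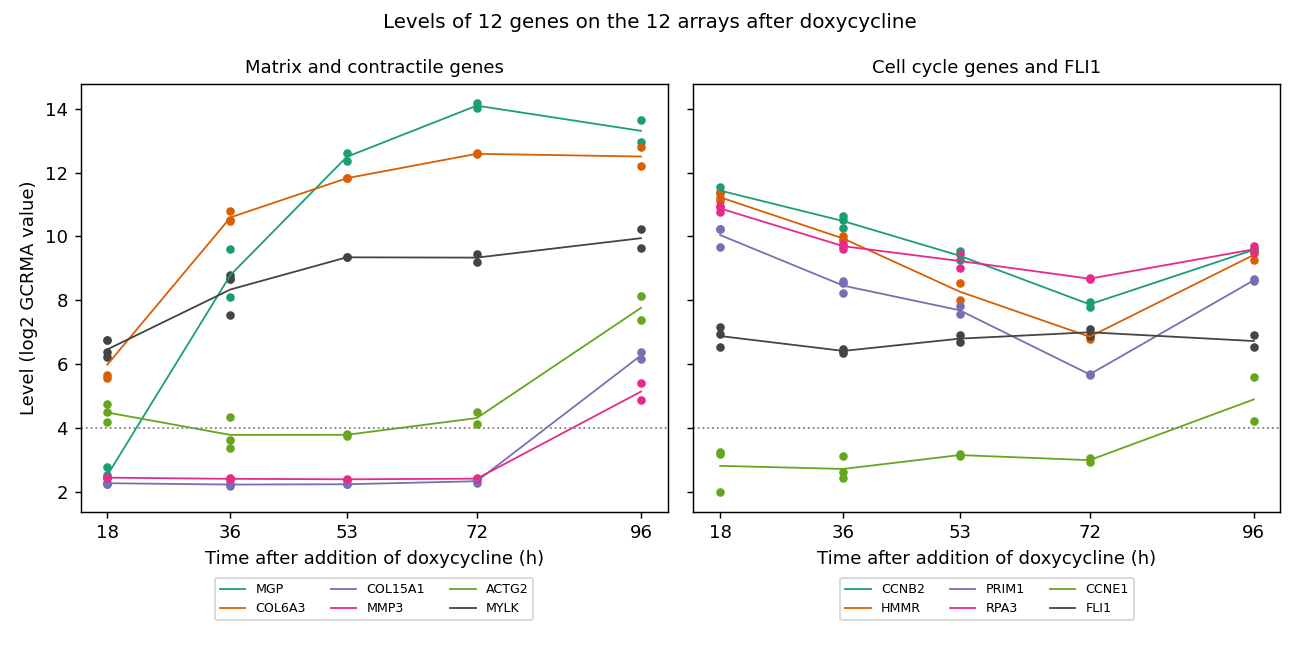
Level (log2 GCRMA value) of 12 genes on the 12 arrays after doxycycline, against hours after its addition. Points are arrays, lines join the means and the dotted line is log2 4. In the left panel COL15A1, MMP3 and ACTG2 stay low to 72 h and are higher on both 96 h arrays, and in the right panel CCNB2, HMMR, PRIM1 and RPA3 are lowest at 72 h while FLI1 stays between 6.34 and 7.17.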

How the data were processed

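RNA of A673 Asp14 cells was measured on 16 Affymetrix arrays, and 96 h (n = 2) was compared with 18 h (n = 3). The authors deposited log2 values, 1 per probe set. Per the submitters' processing notes they used GCRMA, for which no version or setting is given in the sources used here. The log2 scale was read from the values (0.388 to 15.2). GCRMA subtracts background by probe sequence, which compresses dim values. Array medians over tested genes were 8.23 to 8.25 at 96 h and 8.28 to 8.32 at 18 h.

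Of 22277 probe sets, 19070 had 1 gene symbol in the platform annotation, 1043 several and 2164 none, and 0 columns of other samples were present. Each of 11963 genes was represented by its probe set with the highest mean over the 12 arrays after doxycycline, and a gene was tested where at least 2 of the 5 arrays reached log2 4, which left out 4934. limma 3.58.1 in R 4.3.3 fitted 1 mean per time over the 12 arrays (lmFit and trended eBayes, leaving 7 residual degrees of freedom), with Benjamini-Hochberg adjustment over 7029 genes and a threshold of 0.05. The fit was also run on simulated data with independent noise on each array, which cannot show the effect of replicates that share an RNA. The number of arrays limits the precision. Alternatives changed 1 choice at a time and kept the genes and probe sets otherwise. Python 3.11.15 with matplotlib 3.10.9 drew the figures.

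Named genes were FLI1, EWSR1, the E2F and RB family, the 12 highest and 12 lowest differences among called genes whose groups did not overlap, the 4 members of each list with the smallest adjusted p, and the genes whose promoters are shown. Other genes were named after their values were seen. The comparison, the gene lists and the rules were chosen with earlier results of these data known. Lists are described by counts and medians beside those of all tested genes, with no test of a list.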

Additional observations from a re-analysis of the deposited data

How the results depend on the processing

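Of 146 named genes that were called, 117 kept their call under each of the 20 alternatives that tested them. With _x_at and _s_at probe sets removed, 798 genes were higher and 1202 lower, of 4219 tested. With 1 array left out in turn, 1089 to 1394 genes were higher and 1594 to 2053 lower, the fewest without replicate 2 at 96 h, where the lone 96 h array was assumed to vary like the other groups. List medians with 1 array left out ranged from -1.36 to -1.06 for EWS-FLI1-activated, 1.72 to 2.12 for EWS-FLI1-repressed, -1.38 to -1.07 for G2/M, 2.10 to 2.42 for matrix, -0.53 to -0.31 for respiratory chain and -0.60 to -0.25 for G1/S genes. The median of the E2F and RB family was -0.25 and turned to 0.04 without replicate 2 at 96 h, and that of the mesenchymal list was 0.93 and turned to -0.01 with no filter. With arrays centred on the median of all probe sets, the medians were -1.48 for EWS-FLI1-activated, 1.78 for EWS-FLI1-repressed, -1.35 for G2/M, 2.09 for matrix glycoproteins and proteoglycans, -0.83 for stress response and -0.60 for respiratory chain genes. With no filter they were -1.07 for EWS-FLI1-activated genes, 2.12 for collagens and 1.31 for matrix genes, and with dim values set to log2 4 they were -1.16 for EWS-FLI1-activated and 1.77 for matrix genes, since genes near background then enter or shrink. With the mean of all probe sets they were 2.17 for EWS-FLI1-repressed and 2.16 for matrix genes, with array weights 2.09 for EWS-FLI1-repressed genes, and without _x_at and _s_at probe sets 2.56 for collagens and 2.33 for matrix genes. For matrix genes the median was also 2.20 after a second quantile normalization, 2.16 with a filter at log2 6 and 2.30 with arrays centred on the tested genes. The cause of the other shifts was not tested.

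With a replicate block, 1263 genes were higher and 1940 lower, 3085 of them also called without the block. Deviations from the group mean of arrays of the same number correlated at -0.216 and -0.220. The deviations of the 2 arrays at 96 h mirror each other, so these values cannot tell whether replicate numbers pair the arrays. With replicates 2 and 3 averaged at 18 h and at 36 h, 1130 genes were higher and 1586 lower. Values near or under log2 4 carry little signal over background, so changes of dim genes are less certain than those of bright ones.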

Other observations

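Among called genes outside the gene lists and the named genes, the following had large differences and were picked after their values were seen. TDO2, which breaks down tryptophan, stood at 13.34 and 13.24 at 96 h against 7.87, 7.86 and 7.97 at 18 h, a difference of 5.39 (SE 0.12, adjusted p = 1.93e-09). The chemokines CXCL8 and CCL2, which draw in neutrophils and monocytes, were higher at 96 h, CXCL8 at 11.59 and 10.88 against 6.87, 5.00 and 4.90 and CCL2 at 9.65 and 8.84 against 3.84, 4.38 and 4.20. MMP10, stromelysin 2, was at 11.91 and 11.30 against 5.08, 5.12 and 4.60. A2M, a broad inhibitor of proteases, was at 8.53 and 9.80 and AQP1, a water channel, at 9.03 and 8.95, and both were under log2 4 on all 18 h arrays. DSP, desmoplakin of desmosomes, was at 9.82 and 9.02 against 2.51 to 2.66.

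NPY, neuropeptide Y, stood at 4.46 and 4.61 at 96 h against 8.96, 7.86 and 7.65 at 18 h (difference -3.62, adjusted p = 0.000707). Its receptor genes NPY1R and NPY5R, both members of the EWS-FLI1-activated list, fell by 1.03 and 1.54. PRPH, peripherin, an intermediate filament of peripheral neurons, was at 3.25 and 4.84 against 7.31, 7.98 and 7.71. ADGRG2, an adhesion G protein-coupled receptor, was at 7.15 and 7.03 against 11.35, 10.52 and 10.46. LGR5, a receptor for R-spondins in the Wnt pathway, was at 2.90 and 4.05 against 7.63, 6.16 and 6.11.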
